A study of Mus musculus with 6 samples.

Results

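The genes described here are 10 mouse genes whose transcripts follow Ras/ERK signalling or whose proteins restrain it. They are the Sprouty genes *Spry1*, *Spry2* and *Spry4*, the Spred genes *Spred1* and *Spred2*, the phosphatase genes *Dusp4* and *Dusp6*, and the ETS factor genes *Etv1*, *Etv4* and *Etv5*. They were chosen by symbol from their known place in the pathway, with earlier results of these data known. All 10 were found among the 24062 genes listed in the count data, and all 10 were among the 15652 genes that passed the filter on low counts and were tested. RNA came from dorsal root ganglia and tumors (DRG/tumors) of 6 mice on a C57BL/6-I129 background, and their ages are not given in the sources used here. In 3 of them, *Nf1fl/fl;DhhCre*, *Nf1* was floxed and Cre was driven by the *Dhh* promoter. The other 3 were labelled Rx1flfl;Rx3fl/fl;DhhCre and as double knockout of *Runx1* and *Runx3*, and the extraction notes and the study's methods add Nf1fl/fl to this genotype, so that both groups carried the *Nf1* allele and the Cre. *Dhh* is active in the Schwann cell (SC) lineage, and which other cells of the tissue kept intact copies was not measured. The tissue label reads DRG for the first group and neurofibroma tumor for the second, and a difference in the tissue taken cannot be told apart from genotype.

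Neurofibromin, the product of *Nf1*, switches Ras off, and SC that lose it signal more strongly through Raf, MEK and ERK. Active ERK turns on the transcription of its own restraints. Sprouty proteins act on the pathway between growth factor receptors and Raf, Spred proteins bring neurofibromin to Ras at the membrane, and dual-specificity phosphatases such as DUSP4 and DUSP6 remove the activating phosphates from ERK. ETV1, ETV4 and ETV5 form the PEA3 group of ETS transcription factors and are induced by the same signal. Transcripts of these genes are widely read as a measure of ERK output.

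Total counts were between 12439296 and 16682194 per library, at which 3 counts equal 0.180 to 0.241 CPM (counts scaled to a common library total, here before TMM scaling). No library was a copy of another of its group. *Runx1*, a target of the design, was at 131, 141 and 172 CPM in the *Nf1fl/fl;DhhCre* libraries against 84.0, 78.9 and 185 CPM in replicates 1 to 3 labelled double knockout. The third of these had the highest value of the 6, which goes against its label, and the group is therefore called by its label below. *Runx1* did not pass the test (log2 fold change -0.44, adjusted p = 0.370 by limma-voom with Benjamini-Hochberg adjustment), and without that replicate it was at -0.85 (adjusted p = 0.0290, same method). *Runx3* was at 19.9, 15.1 and 29.9 CPM against 13.5, 10.3 and 12.1 CPM (log2 fold change -0.79, adjusted p = 0.104). It passed with DESeq2 (-0.86, adjusted p = 0.0278), without *Nf1fl/fl;DhhCre* replicate 2 (-0.99, adjusted p = 0.0430) and with a muscle marker score as covariate (-0.75, adjusted p = 0.0479). *Nf1*, floxed in both groups, was at 334, 273 and 298 against 266, 263 and 342 CPM. Skeletal muscle markers summed to 2746 CPM in *Nf1fl/fl;DhhCre* replicate 2 and 11612 CPM in replicate 2 labelled double knockout, and to between 9.94 and 72.2 CPM in the other 4 libraries. The labels place 1 library labelled double knockout in another sequencing run, replicate 3 by its description and replicate 2 by the mouse number in its file.

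Libraries labelled double knockout had 5 of the 10 genes at a lower level with an adjusted p below 0.05 by limma-voom, which is called passing the test below. They were *Spry1*, *Spry4*, *Spred1*, *Dusp6* and *Etv4*. Over all genes tested 8.22% passed the test as lower. Of these 5, *Spry1*, *Spred1*, *Dusp6* and *Etv4* were also more than 2-fold lower, which held for 5.36% of all genes tested. *Spry1* was just short of 2-fold with sample quality weights (-0.99), which left 3, and without *Nf1fl/fl;DhhCre* replicate 2 (-0.98), where *Spry4* (-1.02) was past it. No member passed the test as higher, where 11.1% of all genes tested did so, or 8.03% when a change of more than 2-fold was also asked. In 6 of the 10 every library labelled double knockout was below every *Nf1fl/fl;DhhCre* library, the 5 genes above and *Spry2*, and 20.5% of all genes tested were lower without overlap. The median log2 fold change was -0.72 over the 10 and 0.02 over all genes tested. *Spred2*, *Etv1* and *Etv5* differed by less than their spread, and *Dusp4* had the opposite sign. In bulk tissue, fewer cells of a type and less RNA per cell cannot be told apart.

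The count of 5 depended on single libraries. It was 1 without *Nf1fl/fl;DhhCre* replicate 1, 6 without replicate 2 and 2 without replicate 3 of that genotype. Without replicates 1, 2 and 3 labelled double knockout it was 4, 2 and 2. Replicate 3 is the library with high *Runx1*. The count of members more than 2-fold lower was 1, 4 and 2 without *Nf1fl/fl;DhhCre* replicates 1 to 3 and 4, 2 and 2 without the replicates labelled double knockout. Over all genes tested, the number lower was between 190 and 1388 in these 6 fits and 1287 with all libraries.

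**Figure D1:**
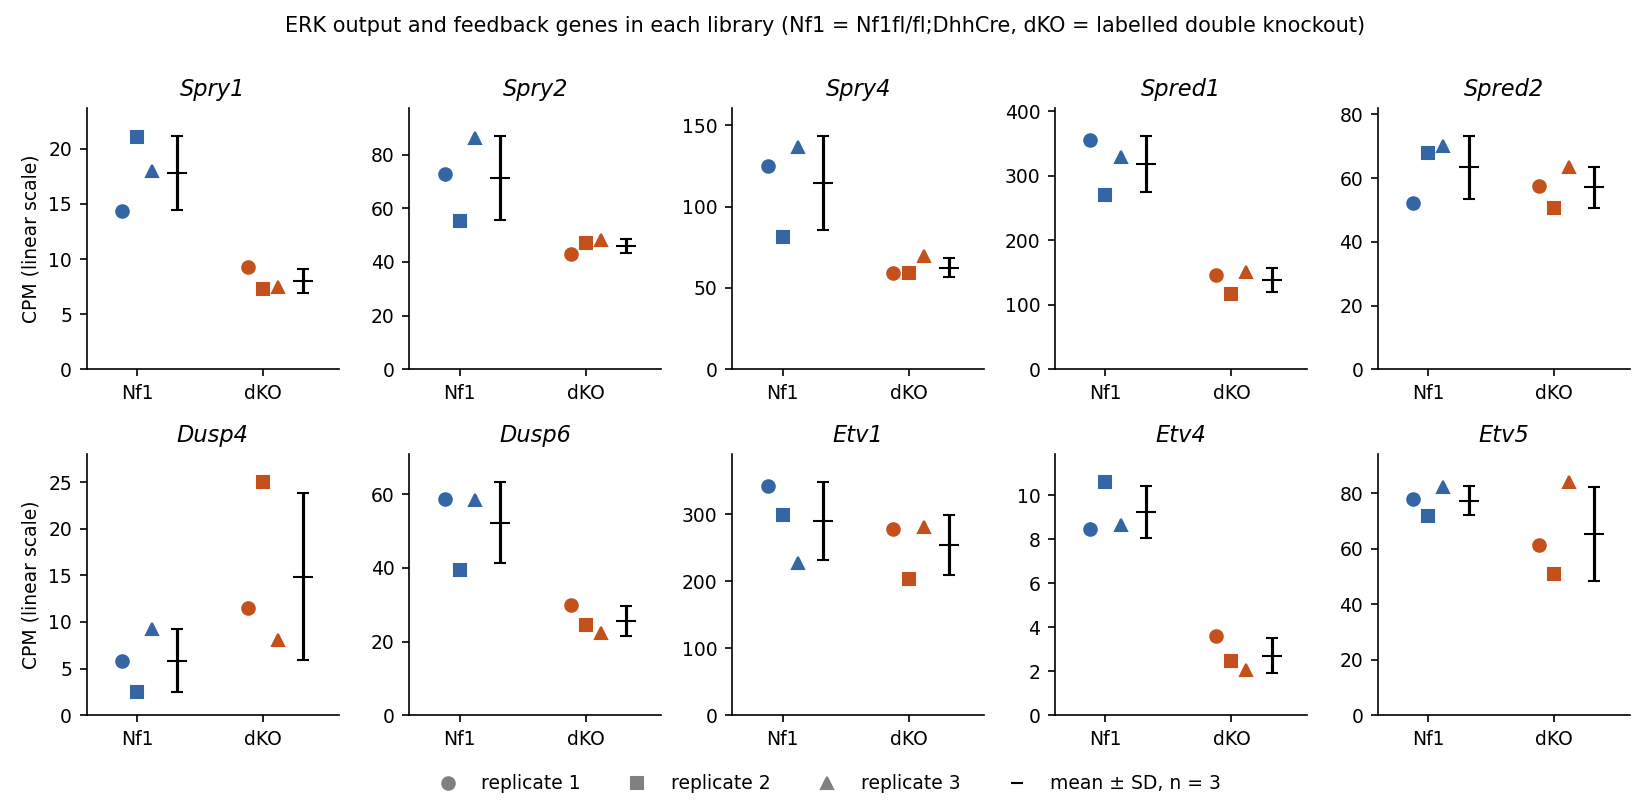
Level of each of the 10 genes in CPM (vertical axis, from 0) in each library, by group, with each group's mean and SD (n = 3). The groups do not overlap for *Spry1*, *Spry2*, *Spry4*, *Spred1*, *Dusp6* and *Etv4*, and replicates with the same symbol are not paired between groups.

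**Figure D2:**
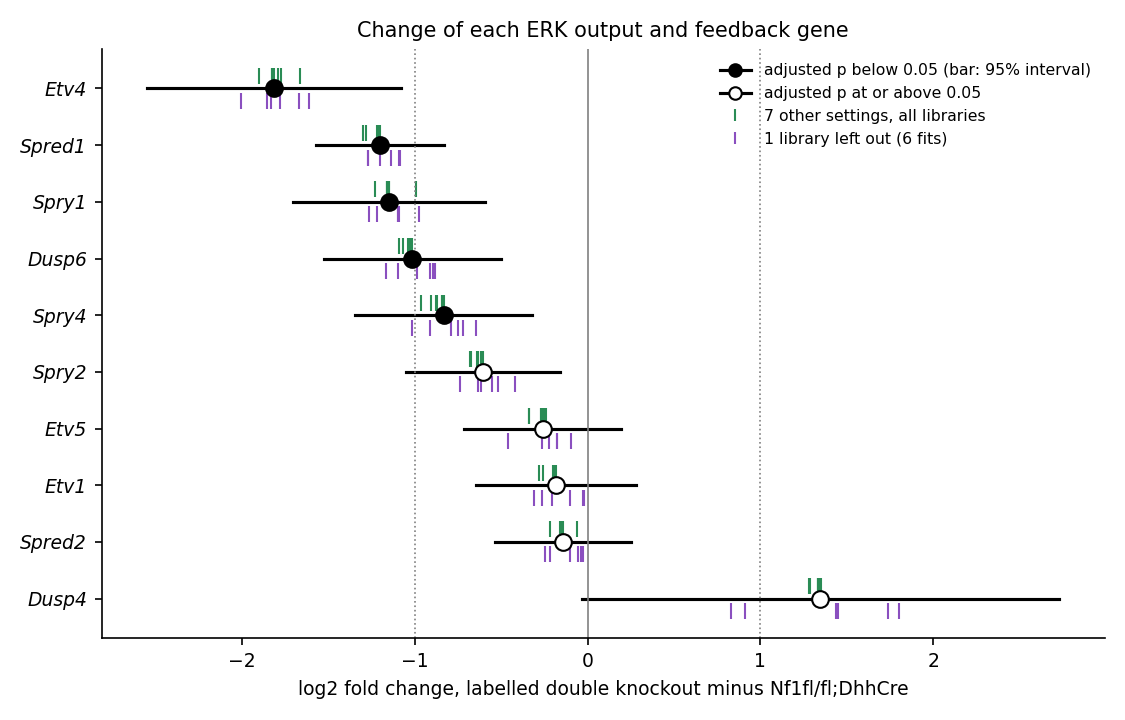
Log2 fold change of each gene, libraries labelled double knockout minus *Nf1fl/fl;DhhCre* libraries (horizontal axis), with its 95% interval from limma-voom. Ticks above each point are the 7 other settings and ticks below it the 6 fits that leave out a library. The points run from *Etv4* at -1.82 to *Dusp4* at 1.35, and the intervals of *Spry2* and the 5 genes that passed the test lie below 0.

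Sequence from 250 bases before to 50 bases after annotated starts was at hand for 7 of the 10 genes, in 9 promoters, from RefSeq on GRCm38.p6. It is shown for the 3 genes that were more than 2-fold lower and have an entry, for *Spred2* as the family partner of *Spred1* that did not pass the test, and for *Etv1*, whose upstream start held the most RUNX matches. Capitals mark the letters TGTGG (core of RUNX motifs) and AGGAAG (an ETS motif) on either strand, and the windows lie at chr3:37639697-37639996, chr2:117120821-117121120, chr10:99262981-99263280, chr11:19924192-19924491 and chr12:38779832-38780131, all on the plus strand.
Spry1: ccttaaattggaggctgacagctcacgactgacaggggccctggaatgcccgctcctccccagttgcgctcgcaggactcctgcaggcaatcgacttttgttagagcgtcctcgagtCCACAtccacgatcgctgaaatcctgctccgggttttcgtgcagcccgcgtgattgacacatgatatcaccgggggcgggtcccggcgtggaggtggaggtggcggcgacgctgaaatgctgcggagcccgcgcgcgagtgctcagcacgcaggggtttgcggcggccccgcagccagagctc
Spred1: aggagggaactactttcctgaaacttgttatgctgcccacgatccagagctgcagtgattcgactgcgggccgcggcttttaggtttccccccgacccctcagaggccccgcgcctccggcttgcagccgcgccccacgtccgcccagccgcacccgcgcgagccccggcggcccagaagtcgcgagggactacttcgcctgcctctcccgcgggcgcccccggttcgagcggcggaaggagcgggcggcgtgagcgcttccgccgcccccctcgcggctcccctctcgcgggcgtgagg
Dusp6: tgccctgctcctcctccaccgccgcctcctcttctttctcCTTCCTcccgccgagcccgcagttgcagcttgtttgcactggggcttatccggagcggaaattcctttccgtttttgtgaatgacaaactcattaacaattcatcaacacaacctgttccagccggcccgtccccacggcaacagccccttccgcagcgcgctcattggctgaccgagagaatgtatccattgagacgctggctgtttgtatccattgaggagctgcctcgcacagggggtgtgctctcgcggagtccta
Spred2: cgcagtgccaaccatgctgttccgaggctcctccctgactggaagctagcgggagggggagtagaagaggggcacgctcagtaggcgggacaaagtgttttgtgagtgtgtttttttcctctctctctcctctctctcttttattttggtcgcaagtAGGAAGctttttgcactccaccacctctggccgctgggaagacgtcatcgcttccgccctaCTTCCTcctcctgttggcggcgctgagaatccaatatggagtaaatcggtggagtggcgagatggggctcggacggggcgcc
Etv1: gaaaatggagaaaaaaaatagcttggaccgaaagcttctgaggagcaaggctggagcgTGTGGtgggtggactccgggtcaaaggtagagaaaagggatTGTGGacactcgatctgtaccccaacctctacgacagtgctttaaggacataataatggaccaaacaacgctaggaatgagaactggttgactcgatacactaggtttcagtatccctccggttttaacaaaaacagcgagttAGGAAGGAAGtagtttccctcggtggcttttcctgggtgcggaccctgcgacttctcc

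*Spry1* held 1 RUNX match, the upstream *Etv1* start held 2, and the other 7 of the 9 promoters held none. Of 32851 mouse promoters of this length, 55.9% held at least 1. The ETS letters were in 4 of the 9 (*Dusp6*, *Spred2* and 1 start each of *Etv1* and *Etv5*) and in 35.4% of all promoters. In *Etv1* the 2 ETS matches overlap each other. TGAATGAA and TGAATGGA, the letters that CIC binds, and TGANTCA, the AP-1 motif, were searched on both strands and were in none of the 9, against 1.30%, 1.21% and 7.81% of all promoters. *Spred1*, which passed the test in every fit, had no match to any of these letters, and *Etv1*, which passed in none, had the most. *Spry1* and *Dusp6*, which passed with all libraries, held 1 RUNX and 1 ETS match, and *Spry2*, which did not, held neither. Whether these letters bear on the changes was not tested.

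Of the 3 Sprouty genes, *Spry1* and *Spry4* passed the test as lower and *Spry2* did not. *Spry1*, on chromosome 3 from 37639947 to 37644598 of GRCm38 (plus strand), was at 14.4, 21.0 and 18.0 CPM in *Nf1fl/fl;DhhCre* replicates 1 to 3 against 9.24, 7.32 and 7.46 CPM in those labelled double knockout. Each value of the second group was below each of the first. The means were 17.8 ± 3.34 and 8.01 ± 1.07 CPM (SD, n = 3), a log2 fold change of -1.15 (SE 0.24, 95% interval -1.70 to -0.60), or 2.22-fold lower (adjusted p = 0.020, limma-voom). The values rest on 207 to 353 counts against 89 to 116. An unspliced transcript annotated on the opposite strand, Gm42922, covers 710 of the 2906 exon bases of *Spry1*, and the strand setting of the counting is not given in the sources used here. The adjusted p was 0.0518 and 0.0641 without *Nf1fl/fl;DhhCre* replicates 1 and 3, and 0.0670 and 0.0570 without replicates 2 and 3 labelled double knockout, with log2 fold changes of -1.27 to -0.98 over the 6 fits that leave out a library. Without both libraries high in muscle markers it was -0.95 (adjusted p = 0.0870).

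*Spry4* lies on chromosome 18 from 38586247 to 38601415 (minus strand). It was at 125, 81.4 and 136 CPM in the *Nf1fl/fl;DhhCre* libraries against 59.0, 59.0 and 69.5 CPM in those labelled double knockout. The groups did not overlap, and *Nf1fl/fl;DhhCre* replicate 2 was nearest to the other group. Its mean went from 114 ± 29.0 to 62.5 ± 6.07 CPM (SD, n = 3), a log2 fold change of -0.83 (SE 0.22, 95% interval -1.34 to -0.32, adjusted p = 0.0384), or 1.78-fold lower. *Spry4* passed the test in only 1 of the 6 fits that leave out a library, that without *Nf1fl/fl;DhhCre* replicate 2. The adjusted p was 0.129 and 0.107 without *Nf1fl/fl;DhhCre* replicates 1 and 3, and 0.104, 0.112 and 0.0673 without replicates 1, 2 and 3 labelled double knockout. The log2 fold change stayed between -1.02 and -0.65. Without both libraries high in muscle markers it was -1.01 (adjusted p = 0.0221).

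*Spry2* (chromosome 14, 105891947 to 105896819, minus strand) was at 72.8, 55.1 and 86.1 CPM against 43.0, 47.0 and 48.1 CPM. Again no value of the second group reached the first. The log2 fold change of -0.61 (SE 0.19, 95% interval -1.05 to -0.16) did not pass the test (adjusted p = 0.0646, unadjusted p = 0.0146, limma-voom). *Spry2* passed it with DESeq2 (adjusted p = 0.0157), with sample quality weights (0.0246), with scaling by library size alone (0.0495), without *Nf1fl/fl;DhhCre* replicate 2 (-0.74, adjusted p = 0.0239) and without both libraries high in muscle markers (-0.78, adjusted p = 0.0464).

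Spred genes were unlike each other. *Spred1*, the cause of Legius syndrome when mutated in people, lies on chromosome 2 from 117121374 to 117182279 (plus strand). It was at 355, 270.4 and 329 CPM in the *Nf1fl/fl;DhhCre* libraries against 146, 116 and 151 CPM in those labelled double knockout. The lowest value of the first group was well above the highest of the second. The means were 318 ± 43.2 and 138 ± 18.6 CPM (SD, n = 3), with a log2 fold change of -1.20 (SE 0.16, 95% interval -1.57 to -0.83), or 2.30-fold lower (adjusted p = 0.00911, limma-voom). *Spred1* had the smallest adjusted p of the 10 and was the one member that passed the test in all 6 fits that leave out a library, at -1.27 to -1.09. Without the replicate with high *Runx1* it was at -1.27 (adjusted p = 0.0170). *Spred2* (chromosome 11, 19924375 to 20024026, plus strand) was at 52.0, 68.0 and 69.9 CPM against 57.4, 50.6 and 63.4 CPM, and the groups overlapped. Its log2 fold change was -0.14 (SE 0.17, 95% interval -0.53 to 0.25, adjusted p = 0.591), an interval that reaches neither a 2-fold decrease nor the value of *Spred1*.

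The ERK phosphatase genes had opposite signs. *Dusp6* encodes a cytoplasmic phosphatase that acts on ERK and lies on chromosome 10 from 99263231 to 99267489 (plus strand). It was at 58.7, 39.6 and 58.6 CPM in the *Nf1fl/fl;DhhCre* libraries against 30.0, 24.5 and 22.3 CPM in those labelled double knockout. These did not overlap. The means were 52.3 ± 11 and 25.6 ± 3.98 CPM (SD, n = 3), a log2 fold change of -1.02 (SE 0.22, 95% interval -1.53 to -0.50, adjusted p = 0.0225), or 2.02-fold lower. The adjusted p was 0.0872 and 0.0737 without *Nf1fl/fl;DhhCre* replicates 1 and 3, and 0.0701 and 0.0637 without replicates 2 and 3 labelled double knockout, and the log2 fold change stayed between -1.17 and -0.89. With a muscle marker score as a covariate it was -0.99, just short of 2-fold.

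*Dusp4*, which encodes a nuclear phosphatase, lies on chromosome 8 from 34807297 to 34819894 (plus strand). It was at 5.83, 2.50 and 9.24 CPM against 11.5, 25.0 and 8.05 CPM, from 42 to 144 counts against 122 to 304. The groups overlapped, and the lowest and the highest value were those of the 2 libraries high in muscle markers. The log2 fold change was 1.35 (SE 0.59, 95% interval -0.03 to 2.73, adjusted p = 0.150). Without both of those libraries it was 0.37 (adjusted p = 0.565), and without the replicate with high *Runx1* it was 1.74 (adjusted p = 0.0986). *Dusp4* did not pass the test in any fit that leaves out a library.

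Among the PEA3 genes, *Etv4* was lower and *Etv1* and *Etv5* did not pass the test. *Etv4* (chromosome 11, 101769742 to 101785371, minus strand) was at 8.46, 10.6 and 8.66 CPM in the *Nf1fl/fl;DhhCre* libraries against 3.59, 2.47 and 2.05 CPM in those labelled double knockout. The groups stood far apart relative to their spread. The means of 9.24 ± 1.18 and 2.70 ± 0.796 CPM (SD, n = 3) gave a log2 fold change of -1.82 (SE 0.31, 95% interval -2.55 to -1.08), or 3.52-fold lower (adjusted p = 0.0135, limma-voom). This was the largest change among the 10, on 122 to 178 counts against 30 to 45, and 4.0% of all genes tested had a lower log2 fold change. *Etv4* passed the test in 5 of the 6 fits that leave out a library, all but that without *Nf1fl/fl;DhhCre* replicate 1 (-1.85, adjusted p = 0.0539). It was -1.61 (adjusted p = 0.0376) without the replicate with high *Runx1* and -1.67 (adjusted p = 0.0525) without both libraries high in muscle markers.

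*Etv5* (chromosome 16, 22381309 to 22439719, minus strand) was at 77.7, 71.8 and 82.1 CPM against 61.1, 50.7 and 84.0 CPM. The replicate with high *Runx1* had the highest *Etv5* value of the 6, and the other 2 libraries labelled double knockout had the lowest. The log2 fold change was -0.26 (SE 0.19, 95% interval -0.72 to 0.20, adjusted p = 0.383), and without that replicate it was -0.46 (adjusted p = 0.0994). *Etv1* (chromosome 12, 38779380 to 38870484, plus strand) was at 342, 299 and 227 CPM against 277, 202 and 281 CPM, with a log2 fold change of -0.18 (SE 0.20, 95% interval -0.65 to 0.28, adjusted p = 0.552). These ranges overlapped.

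Levels were compared between genes in CPM per kilobase of annotated exons. In the *Nf1fl/fl;DhhCre* libraries the order was *Spred1* (46.9 ± 6.36), *Spry2* (34.2 ± 7.44), *Spry4* (24.0 ± 6.09), *Etv1* (21.8 ± 4.4), *Etv5* (18.8 ± 1.26), *Dusp6* (16.7 ± 3.52), *Spred2* (13.7 ± 2.13), *Spry1* (6.13 ± 1.15), *Etv4* (2.98 ± 0.382) and *Dusp4* (2.14 ± 1.23; SD, n = 3 each). Neighbours in this order differed by less than their summed SDs, except *Spred2* from *Spry1* and *Spry1* from *Etv4*. In the libraries labelled double knockout *Spry2* (22.04 ± 1.29), *Spred1* (20.3 ± 2.74) and *Etv1* (19.1 ± 3.34) stood at the head, followed by *Etv5* (15.9 ± 4.14), *Spry4* (13.1 ± 1.28), *Spred2* (12.4 ± 1.39), *Dusp6* (8.18 ± 1.27), *Dusp4* (5.42 ± 3.27), *Spry1* (2.76 ± 0.369) and *Etv4* (0.870 ± 0.256). Here *Spred2* from *Dusp6* and *Spry1* from *Etv4* were the neighbours that differed by more than their summed SDs.

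Ratios between members of a family were then taken within each library, which needs no scaling between libraries. The ratio of *Spred1* to *Spred2* counts was 6.82, 3.98 and 4.70 in the *Nf1fl/fl;DhhCre* libraries and 2.54, 2.30 and 2.38 in the libraries labelled double knockout, without overlap. The ratio of *Etv4* to *Etv5* counts was 0.109, 0.148 and 0.105 against 0.0587, 0.0486 and 0.0244, a difference of -1.54 on the log2 scale, and that of *Etv1* to *Etv4* was 40.5, 28.2 and 26.2 against 77.3, 82.1 and 137. The ratio of *Dusp4* to *Dusp6* counts was 0.0992, 0.0633 and 0.158 against 0.382, 1.02 and 0.361. *Spry2* to *Spry4* was higher by 0.23 on the log2 scale, at 0.582, 0.677 and 0.632 against 0.728, 0.795 and 0.691. The exact two-sided permutation p was 0.1 for each of these 5 ratios, the smallest that 3 against 3 libraries allow, and 0.16 with Benjamini-Hochberg adjustment over the 8 ratios compared. *Spry1* to *Spry2* (log2 difference -0.53, exact permutation p = 0.3), *Spry1* to *Spry4* (-0.30, exact permutation p = 0.6) and *Etv1* to *Etv5* (0.09, exact permutation p = 0.8) overlapped between groups.

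**Figure D3:**
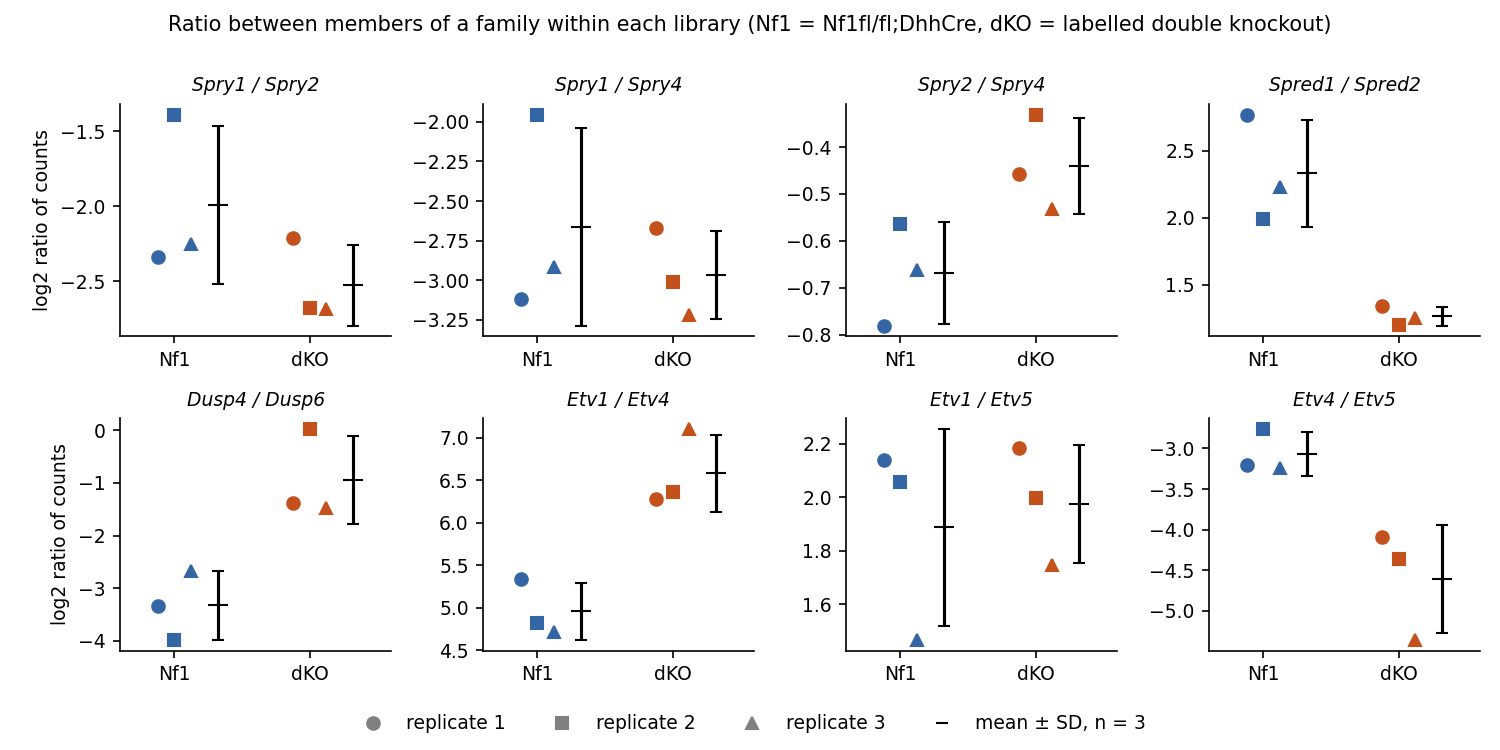
Log2 ratio of the counts of 2 genes of a family (vertical axis, range set for each pair) in each library, by group, with mean and SD (n = 3). The groups do not overlap for *Spry2*/*Spry4*, *Spred1*/*Spred2*, *Dusp4*/*Dusp6*, *Etv1*/*Etv4* and *Etv4*/*Etv5*.

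Other cells of the tissue also differed between the groups. Sensory neuron markers summed to 1949 to 3388 CPM in the *Nf1fl/fl;DhhCre* libraries and 7521 to 15959 CPM in those labelled double knockout, with 20 of 23 higher by the test. Macrophage markers summed to 1234 to 2790.0 against 188 to 469 CPM, with 11 of 13 lower, and fibroblast and perineurial markers to 8989 to 10142 against 3252 to 5247 CPM, with 7 of 10 lower. No marker of these lists was at 0 in all libraries. Their part in the lower values of *Spry1*, *Spry4*, *Spred1*, *Dusp6* and *Etv4* was not tested. General SC lineage markers summed to 4432 to 4867 against 3766 to 5155 CPM and overlapped. Of these, 3 of 12 were higher by the test (*S100b* by 1.52, *Ngfr* by 1.36 and *Gap43* by 1.61 on the log2 scale). All 3 were highest in replicate 3 labelled double knockout, where the neuron marker sum was highest too. The part of neurons in these values was not tested. *Foxd3* (-0.60, adjusted p = 0.0985) and *Ncam1* (-0.62, adjusted p = 0.0522, both limma-voom) were lower without overlap and did not pass. The myelinating SC markers summed to 5688 to 6962 against 12215 to 15857 CPM, with 11 of 12 higher. T and NK cell markers summed to 13.8 to 52.4 against 4.75 to 7.09 CPM, with a median log2 fold change of -1.98 over the 7 tested, of which 0 passed the test and 3 were lower without overlap. Within the other lists, 0 of 11 skeletal muscle, 0 of 8 endothelial and 0 of 7 mast cell markers tested passed, and of 6 satellite glial markers 1 was lower and 1 higher.

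*Sox10*, a transcription factor that defines the SC lineage and satellite glia, was at 227, 195 and 241 CPM against 254, 199.99 and 256 CPM (log2 fold change 0.10, SE 0.15, adjusted p = 0.677). As a description, the members were set against it in each library. *Spred1* was at 1.56, 1.39 and 1.36 times the *Sox10* CPM in the *Nf1fl/fl;DhhCre* libraries and at 0.573, 0.582 and 0.590 times in those labelled double knockout. *Dusp6* was at 0.259, 0.203 and 0.243 against 0.118, 0.123 and 0.0872 times *Sox10*, and *Etv4* at 0.0373, 0.0544 and 0.0360 against 0.0141, 0.0123 and 0.00799. On this scale the 6 genes named above again did not overlap, nor did *Etv5* at 0.342, 0.368 and 0.341 against 0.241, 0.254 and 0.328. The share of all genes without overlap on this scale was not computed, so the number of members has no reference here. *Spred2*, *Dusp4* and *Etv1* overlapped.

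**Figure D4:**
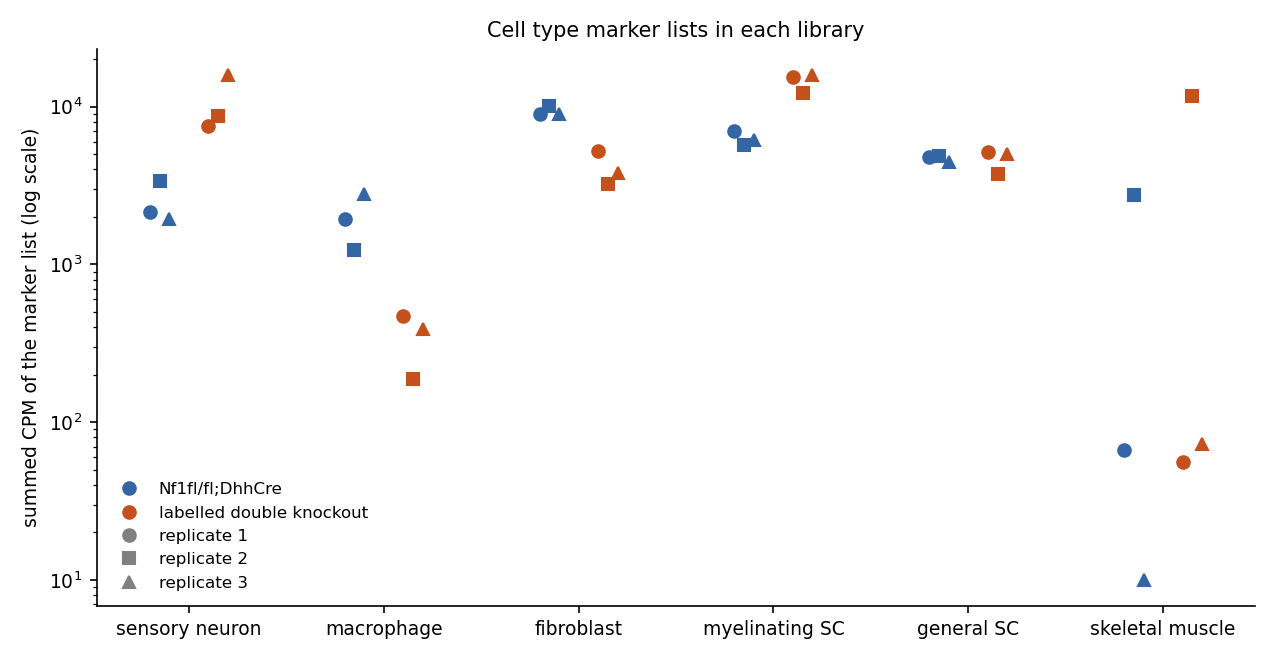
Summed CPM of the sensory neuron, macrophage, fibroblast, myelinating SC, general SC and skeletal muscle marker lists (log axis) in each library, by group. The groups stand apart for neuron, macrophage, fibroblast and myelinating SC markers and overlap for general SC markers, and muscle markers are high in replicate 2 of both groups.

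Further genes of the pathway were taken from lists, also chosen with earlier results of these data known. Of 14 other genes described as ERK output in tumors, 13 were tested, and 4 passed the test as lower and 1 as higher, beside 8.22% and 11.1% of all genes tested, with a median log2 fold change of -1.0002. *Emp1*, a membrane protein gene, was at 466, 440.5 and 491 CPM against 134, 86.8 and 97.6 CPM (log2 fold change -2.16, adjusted p = 0.00596). *Ccnd1*, which encodes cyclin D1 and carries the growth signal to the cell cycle, was at 1103, 811 and 1438 against 398, 213 and 287 CPM (-1.91, adjusted p = 0.0103). *Egr1*, an immediate early transcription factor gene, was at 219, 141 and 155 against 72.1, 62.9 and 85.6 CPM (-1.20, adjusted p = 0.0134), and *Il1rap*, a receptor subunit gene, at 187, 119 and 147 against 89.4, 47.0 and 63.0 CPM (-1.20, adjusted p = 0.0227). None of these 4 genes overlapped between groups. Macrophage and fibroblast markers were lower in the same libraries, and their part in these values was not tested. *Phlda1* was at 133, 60.2 and 128 against 49.97, 47.4 and 55.5 CPM and did not pass (-0.98, adjusted p = 0.0727). *Epha4*, named after its values were seen, was the gene that rose (0.80, adjusted p = 0.0348). *Emp1* and *Egr1* passed in all 6 fits that leave out a library. *Ccnd1* just missed the threshold without *Nf1fl/fl;DhhCre* replicate 1 (-1.87, adjusted p = 0.05003). *Il1rap* passed in 2 fits, with adjusted p of 0.0771 and 0.0661 without *Nf1fl/fl;DhhCre* replicates 1 and 3 and 0.0639 and 0.0583 without replicates 2 and 3 labelled double knockout. *Epha4* passed in 1 fit, that without replicate 3 labelled double knockout, and its adjusted p was 0.0733, 0.0642 and 0.0989 without *Nf1fl/fl;DhhCre* replicates 1 to 3 and 0.0843 and 0.0891 without the other 2. *Phlda1* passed without *Nf1fl/fl;DhhCre* replicate 2 (-1.31, adjusted p = 0.00879), with edgeR (adjusted p = 0.0435), DESeq2 (0.00409) and sample quality weights (0.0194), with the muscle score as covariate (0.0290) and without both libraries high in muscle markers (0.0174). The count of 5 in this list was 2 without *Nf1fl/fl;DhhCre* replicate 1, and 3 without *Nf1fl/fl;DhhCre* replicate 3 or replicate 2 labelled double knockout.

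The remaining Sprouty, Spred and MAP kinase phosphatase genes gave no call. Of 10, 7 were tested and 0 passed the test by limma-voom, edgeR or DESeq2. By limma-voom 8.22% of all genes tested passed as lower and 11.1% as higher, and a list this short can hold few calls at such shares. At an unadjusted p below 0.05 there was 1 by limma-voom, *Dusp7*, and 0 by edgeR and by DESeq2. Of all 15652 genes tested, 5513 by limma-voom, 5622 by edgeR and 6033 by DESeq2 had an unadjusted p below 0.05. The median log2 fold change was -0.22. *Dusp1*, an immediate early phosphatase gene, was at 35.0, 86.4 and 36.9 CPM against 55.6, 82.8 and 33.1 CPM (0.12, adjusted p = 0.877), highest in the 2 libraries with muscle markers. *Dusp5*, which encodes a nuclear ERK phosphatase, was at 0.416, 0.834 and 0.898 against 0.319, 0.329 and 1.52 CPM (-0.22, adjusted p = 0.874).

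The genes of the cascade from Ras to ERK were taken from a further list. Of 28 genes for adaptors, Ras and Raf proteins, MEK, ERK, scaffolds and RSK kinases, 1 passed the test as lower and 7 as higher, beside 8.22% and 11.1% of all genes tested, and 20 did not pass. The median log2 fold change was 0.22. *Mapk3*, which encodes ERK1, was at 144, 141 and 147 CPM in the *Nf1fl/fl;DhhCre* libraries against 232, 248 and 389 CPM in those labelled double knockout (0.97, adjusted p = 0.0209). *Map2k1*, which encodes MEK1, did not pass (0.21, adjusted p = 0.453). *Ksr2*, a scaffold gene, was at 0.971, 2.14 and 2.18 against 14.7, 12.9 and 22.8 CPM (3.27, adjusted p = 0.0104). Of the 3 RSK kinase genes in the list 1 rose and 1 fell, *Rps6ka2* at 20.9, 30.9 and 15.7 against 46.0, 57.0 and 84.5 CPM (1.49, adjusted p = 0.0215) and *Rps6ka1* at 17.5, 11.2 and 26.6 against 5.82, 6.99 and 5.22 CPM (-1.54, adjusted p = 0.0388), while *Rps6ka3*, named after its values were seen, did not pass (0.10, adjusted p = 0.620). Genes that rose by less and were named after their values were seen include *Mras* (0.88), *Pebp1* (0.76) and *Sos1* (0.61). Neuron markers were higher in the same libraries, and their part in these values was not tested. *Ksr2* passed in all 6 fits that leave out a library. *Rps6ka1* passed only without *Nf1fl/fl;DhhCre* replicate 2, with adjusted p of 0.111 and 0.0683 without *Nf1fl/fl;DhhCre* replicates 1 and 3 and of 0.103, 0.0965 and 0.113 without replicates 1, 2 and 3 labelled double knockout. Without *Nf1fl/fl;DhhCre* replicate 1 the adjusted p was 0.0641 for *Mapk3*, 0.0740 for *Rps6ka2*, 0.0589 for *Mras*, 0.0591 for *Pebp1* and 0.0728 for *Sos1*, and without *Nf1fl/fl;DhhCre* replicate 3 it was 0.0502 for *Mapk3*, 0.0601 for *Rps6ka2* and 0.0513 for *Sos1*. *Rps6ka2* also missed the threshold without replicate 2 labelled double knockout (0.0554). The count of 8 in this list was 1 and 4 without *Nf1fl/fl;DhhCre* replicates 1 and 3.

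Of 11 other ETS factors and repressors that act at such genes, 1 was lower and 1 higher by the test, shares near the 8.22% and 11.1% of all genes tested. The median log2 fold change was -0.28. *Elk3*, an ETS factor gene of the ternary complex group, was at 97.6, 74.0 and 127 CPM against 42.0, 46.8 and 38.4 CPM (-1.20, adjusted p = 0.0157). *Atxn1*, named after its values were seen, encodes a partner of the repressor CIC and was at 174, 220.5 and 168 against 344, 372 and 340.0 CPM (0.92, adjusted p = 0.0107). In the same libraries macrophage and fibroblast markers were lower and neuron markers higher, and their part in these values was not tested. *Cic*, whose protein represses the PEA3 genes until ERK relieves it, did not pass (107, 102 and 116 against 87.8, 83.8 and 116 CPM, -0.18, adjusted p = 0.447). Without *Nf1fl/fl;DhhCre* replicate 1 neither *Elk3* (-1.17, adjusted p = 0.0651) nor *Atxn1* (0.89, adjusted p = 0.0539) passed, and the count in this list was 0.

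**Figure D5:**
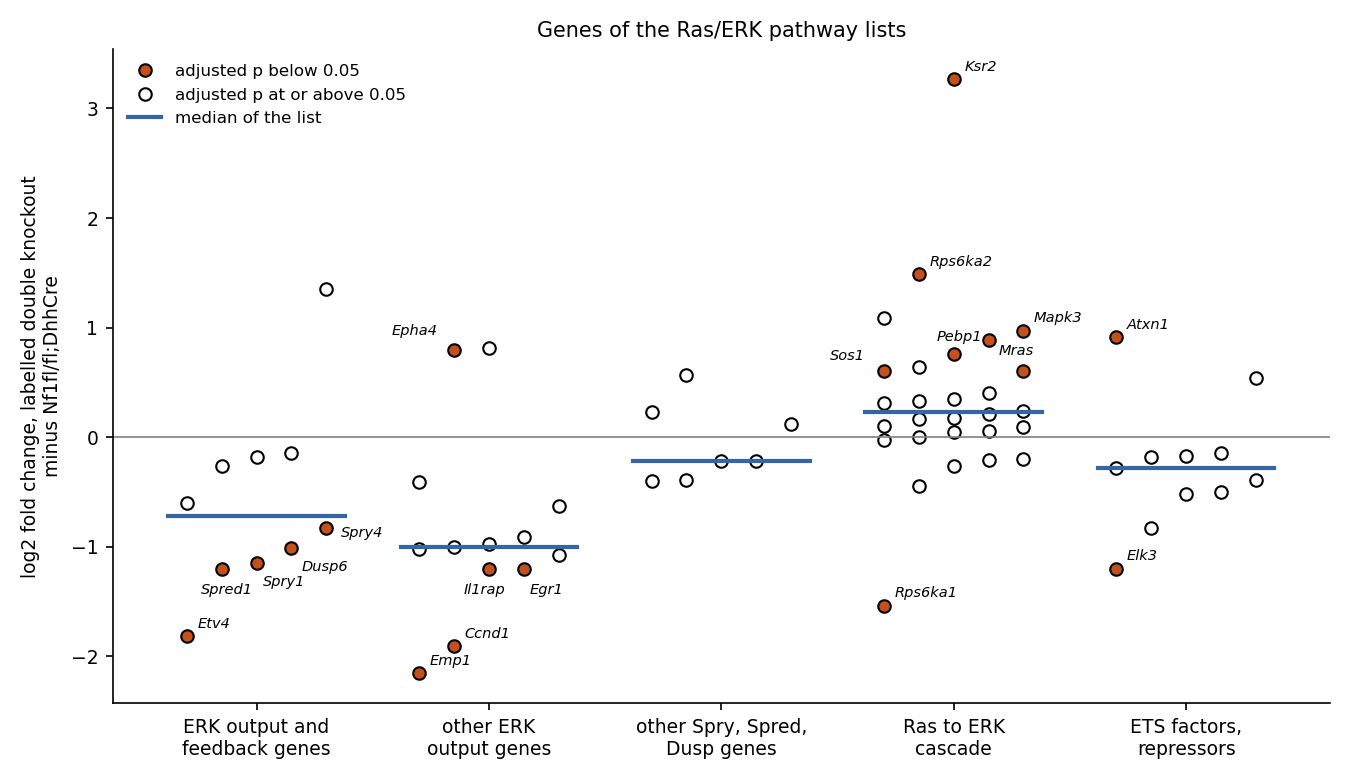
Log2 fold change of every tested gene of the 5 lists, libraries labelled double knockout minus *Nf1fl/fl;DhhCre* libraries (vertical axis), with filled points for genes that passed the test, most of them named, and a bar at each list's median. The medians are -0.72 for the 10 genes described here, -1.0002, -0.22, 0.22 and -0.28 for the lists to their right.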

How the data were processed

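Bulk RNA-seq of mouse DRG/tumors was analysed in 6 libraries, 3 per group. RNA was amplified with the Ovation RNA-Seq System and libraries were made with Nextera XT. Per the submitters' processing notes and the study's methods, the authors aligned reads to mm10 with TopHat and counted them with featureCounts. The deposited values are raw counts per gene symbol, not normalized. The strand setting and how multi-mapped reads were handled are not given in the sources used here. All changes are relative to the other genes of a library, after TMM scaling.

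Counts were filtered with filterByExpr (minimum count 10, total 15), scaled by TMM (edgeR 4.0.16) and fitted with limma-voom (limma 3.58.1, R 4.3.3) with genotype as the only term and Benjamini-Hochberg adjustment over all genes tested. CPM were computed from the counts and TMM factors. Passing the test meant an adjusted p below 0.05. Steps were tested on simulated data. Groups came from the genotype labels, and replicate numbers follow the order of the samples and pair nothing. The mouse numbers differ between titles and count data for 4 libraries, within genotype. Titles give each library its own mouse.

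The members and lists were chosen with earlier results of these data known. All members were named, and from each pathway list the genes past the test and over 2-fold (at most 6), plus *Dusp1*, *Dusp5*, *Ccnd1*, *Phlda1*, *Map2k1*, *Mapk3* and *Cic*. Some genes of the lists are counted and not reported by name here. Gene positions came from GENCODE M21. Other settings were DESeq2 1.42.0, the quasi-likelihood test of edgeR, DESeq2 size factors within limma-voom, library size only, CPM above 1 in 3 libraries, no filter, sample quality weights and leaving out each library. A muscle marker score as covariate and leaving out both libraries high in muscle markers were added after seeing the data.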

Additional observations from a re-analysis of the deposited data

How the results depend on the processing

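The direction and call of *Spry1*, *Spry4*, *Spred1*, *Dusp6* and *Etv4* were the same with edgeR, DESeq2, DESeq2 size factors, library size only, both other filters and sample quality weights, and the members lower by the test numbered 5 or 6 in these 7 settings. The causes of the differences below were not tested. With DESeq2 the genes lower by the test numbered 2088 rather than 1287, the other ERK output genes that passed 8 rather than 5, and the ETS factors and repressors 4 rather than 2, as they did with sample quality weights. Without both libraries high in muscle markers, an alternative chosen after seeing the data, 847 genes were lower, and *Spred2* and *Etv1*, neither of which passed the test, turned from -0.14 and -0.18 to 0.017 and 0.021. *Epha4* missed the threshold with library size only (0.72, adjusted p = 0.0534) and without both libraries high in muscle markers (0.80, adjusted p = 0.128). *Dusp5* turned to 0.034 with edgeR, to 0.010 with DESeq2 and to 0.29 without both of those libraries, and *Dusp1* to -0.020 with the muscle score as covariate.

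Leaving out each library in turn gave 362 to 2285 genes past the test and over 2-fold (2096 with all 6), 190 to 1388 lower, 1 to 6 members lower, 1 to 4 members more than 2-fold lower, 2 to 6 other ERK output genes, 1 to 9 cascade genes and 0 to 3 ETS factors and repressors. *Dusp5* ranged from -0.99 to 0.23, *Dusp1* from -0.19 to 0.59 and *Nf1* from -0.18 to 0.043. Each of these fits has 5 libraries. No paired analysis was possible because the replicate numbers were given in sample order and pair no mice. Low counts limit *Etv4*, *Dusp4*, *Dusp5* and *Ksr2*. The limma-voom p-values set each difference against the spread between 3 mice per group, with variance estimates that borrow from all genes tested. That spread includes the muscle content and sequencing run of single libraries.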
